A study of Mus musculus with 18 samples.

Results

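Rbfox2, Qk and the 3 members of the polypyrimidine tract binding (PTB) family, Ptbp1, Ptbp2 and Ptbp3, were followed through the reprogramming of mouse fibroblasts, both as transcripts and as substrates of alternative splicing. The 5 genes were taken by symbol. All 5 were listed among the 9435 genes of the knockdown expression table and among the 9472 genes of the overexpression table, and 231 of the 661941 annotated splicing events lay in them: 73 in Rbfox2, 28 in Qk, 40 in Ptbp1, 48 in Ptbp2 and 42 in Ptbp3. All libraries came from primary mouse embryonic fibroblasts (MEFs) of genotype Collagen-OKSM, M2rtta+, in which doxycycline switches on the 4 reprogramming factors, and the 18 stranded polyA RNA libraries formed 9 groups of 2. In the knockdown dataset, non-infected MEFs at day 0 (NI) stood beside cells harvested at day 12 of doxycycline after lentiviral infection with a scrambled shRNA (shSCR), with either of 2 shRNAs against Cpsf3 (shCPSF3#1, shCPSF3#2), which encodes the endonuclease that cleaves pre-mRNA 3′ ends, or with either of 2 shRNAs against Hnrnpul1 (shUL1#1, shUL1#2), which encodes the RNA-binding protein hnRNP UL1. In the overexpression dataset, NI cells at day 0 stood beside day-12 cells infected with an empty retroviral vector (Empty) or with T7-tagged TIA1 (T7-TIA1), a splicing regulator that binds U-rich RNA. Infected cells were sorted for GFP at day 2 and grown on irradiated feeder MEFs, while NI cells had neither infection, sort nor feeders, so these cannot be told apart from the time of reprogramming in any comparison with NI. The days given here are those of the sample titles, and the column names and the paper's methods give the same days. The separate time label gives day 12 for the NI libraries of the overexpression dataset and day 0 for shUL1#2, which bears on every comparison that uses these libraries. The labels do not say whether the libraries of a group came from separate cultures or animals, and p-values then measure only the spread between these samples.

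RBFOX2, QKI (the product of Qk) and the PTB proteins bind short sequence elements in introns and exons and decide, by where they bind, whether a nearby exon is used. RBFOX proteins recognise GCAUG elements, QKI is a STAR-family protein that promotes mesenchymal splicing patterns, and PTBP1 mostly represses exons next to pyrimidine tracts; PTBP1 is widespread, while PTBP2 is best known from developing neurons. All of these genes are themselves alternatively spliced. The best studied case is a 34-nt exon of Ptbp1 and Ptbp2: PTBP1 favours its skipping, which shifts the reading frame and sends the transcript to nonsense-mediated decay, so the exon is part of a feedback on the family's own levels. The Qk gene is known for alternative C-terminal endings, and Rbfox2 for short alternative exons in the part encoding the C-terminal region.

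The sequences below are the alternative pieces on which the splicing results turn, read 5′ to 3′ on the coding strand of GENCODE M21 transcripts (build mm10). The 34-nt exons of the PTB genes are shown because they differ in use although they hold the same place in the transcripts; capitals mark bases that differ from Ptbp2, of which Ptbp1 shared 26 of 34 and Ptbp3 shared 21 of 34. They lay in coding exons at chr3:119724612-119724645 on the minus strand, chr10:79862014-79862047 on the plus strand and chr4:59485339-59485372 on the minus strand.
Ptbp2 34-nt exon: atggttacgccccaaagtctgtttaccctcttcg
Ptbp1 34-nt exon: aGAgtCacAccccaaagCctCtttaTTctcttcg
Ptbp3 34-nt exon: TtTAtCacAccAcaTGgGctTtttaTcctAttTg
Rbfox2 held a 40-nt and a 43-nt coding exon, at chr15:77094451-77094490 and chr15:77091812-77091854 on the minus strand, shown because the first was the Rbfox2 exon whose use changed.
Rbfox2 40-nt exon: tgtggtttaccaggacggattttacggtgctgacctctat
Rbfox2 43-nt exon: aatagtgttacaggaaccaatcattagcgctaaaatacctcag
Qk coding sequence ended in 3 ways, named here by the length of the annotated protein; only the coding bases that follow the shared part are shown. They lay on the minus strand of chromosome 17, at chr17:10215434-10215474 for the 325-residue form (QKI-7), at chr17:10214172-10214194 for the 319-residue form (QKI-6) and, for the 341-residue form (QKI-5, which carries the nuclear localisation signal), at chr17:10213359-10213433, where the first of its 2 coding pieces lies.
Qk 325-residue ending: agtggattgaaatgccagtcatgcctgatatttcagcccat
Qk 319-residue ending: gtatggctttcccaacgaaaggc
Qk 341-residue ending, first piece: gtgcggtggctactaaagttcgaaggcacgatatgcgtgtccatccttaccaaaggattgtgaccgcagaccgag

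Expression was deposited as counts scaled to library size (CPM) scaled library by library, and differences are on the log2(CPM + 1) scale with the standard error (SE) of the limma fit. Since CPM is not corrected for transcript length, levels are compared between groups and not between genes. The targeted transcripts followed the labels: Cpsf3 fell by 0.997 on the log2 scale in its knockdown against shSCR (adjusted p = 0.0207), Hnrnpul1 fell by 1.52 in its own (adjusted p = 0.0101), and Tia1 was 2.71 higher in T7-TIA1 than in Empty, where no gene of the table was called and its adjusted p was 0.222. Of 12 fibroblast markers 11 were listed, and their summed level lay between 11225 and 14336 CPM in the knockdown NI libraries. None of the 11 pluripotency markers fixed for the check was among the genes analysed here. The deposited genes were a filtered set, so a marker expressed in few libraries can be missing, and its absence does not measure its level. The paper reports by RT-qPCR that endogenous Pou5f1 and Nanog rose in this system.

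Rbfox2 (chr15:77078990-77307004, minus strand) had its lowest levels in the shSCR controls and higher levels under every knockdown shRNA. Its level was 229.68 and 245.05 CPM in NI, 177.39 and 182.48 in shSCR, 304.52 and 316.81 in shCPSF3#1, 258.3 and 247.7 in shCPSF3#2, 271.72 and 244.05 in shUL1#1, and 218.83 and 227.92 in shUL1#2. Both shSCR libraries lay below all 10 others of the dataset, and both shCPSF3#1 libraries lay above the rest. Against shSCR, Rbfox2 rose by 0.637 (SE 0.0892, log2 scale) in CPSF3 knockdown, taken as the mean of its 2 shRNA groups (limma, Benjamini-Hochberg adjusted p = 0.0034), and by 0.413 (SE 0.0892) in UL1 knockdown (adjusted p = 0.0278). By single shRNA the differences were 0.784 for shCPSF3#1 (adjusted p = 0.00251), 0.489 for shCPSF3#2 (0.0383), 0.515 for shUL1#1 (0.0351) and 0.310 for shUL1#2 (0.113). From NI to shSCR it fell by 0.397 (SE 0.103, adjusted p = 0.0151), so that the knockdown libraries were near or above the level at day 0: CPSF3 knockdown differed from NI by 0.240 (adjusted p = 0.0575) and UL1 knockdown by 0.0155 (adjusted p = 0.906). CPSF3 and UL1 knockdown differed by 0.224 (SE 0.0728), which did not pass the threshold (adjusted p = 0.287).

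The rise under CPSF3 knockdown held in each of the 12 fits that left out 1 library, and lost its call when the spread came from only the groups compared (adjusted p = 0.0648). The rise under UL1 knockdown lost its call in 7 of the 12 fits without 1 library, the highest adjusted p being 0.119, and the fall from NI to shSCR lost it without either NI library (0.0518 and 0.0990) and without shSCR library 1 (0.0599). With the libraries rescaled to equal totals those calls had adjusted p = 0.0510 and 0.0988.

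**Figure D1:**
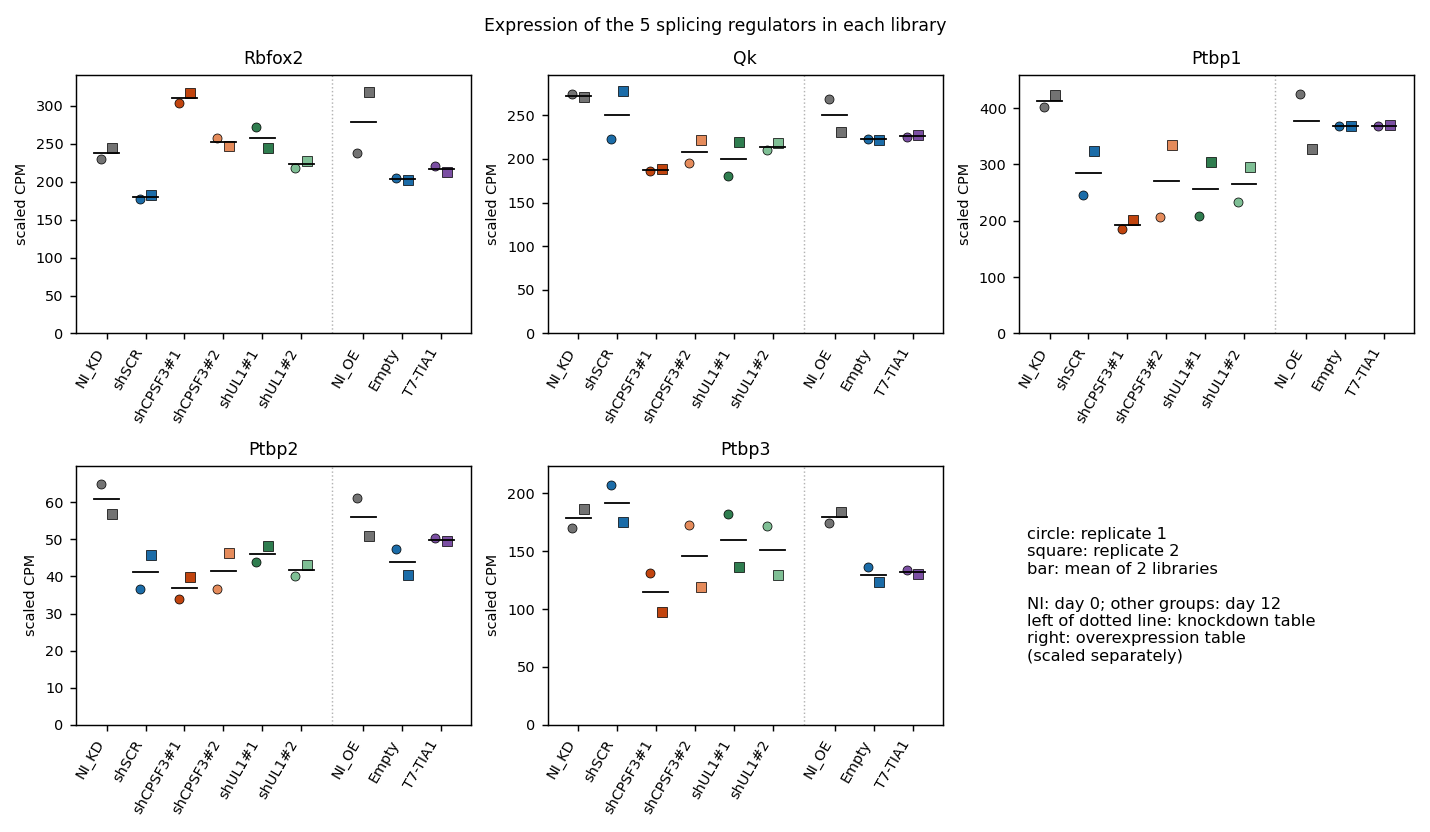
Level of the 5 genes in every library, in CPM as deposited (linear axes, 1 panel per gene); points are single libraries, the short bars are group means, and the knockdown and overexpression datasets were scaled separately. The shSCR libraries hold the lowest Rbfox2 levels of the knockdown dataset, 177.39 and 182.48, and NI holds the highest Ptbp1 and Ptbp2 levels.

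Rbfox2 in the overexpression dataset was at 238.39 and 318.19 CPM in NI, 205.07 and 202.61 in Empty, and 221.29 and 213.33 in T7-TIA1. The NI libraries were above all others but lay far from each other, and the difference from NI to Empty, -0.432, did not pass the test (adjusted p = 0.0661). Without NI library 1 it was -0.64 (adjusted p = 0.00148). T7-TIA1 libraries lay just above the Empty libraries, with no call.

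Markers of cell types differed along with Rbfox2 in the knockdown dataset. The summed level of the 11 listed fibroblast markers was 5196 and 5514 CPM in shSCR, where Rbfox2 was lowest, against 14203 to 22116 CPM in the 4 CPSF3 knockdown libraries and 11846 to 26900 CPM in the 4 UL1 knockdown libraries. For the overexpression libraries it was 12105 CPM in NI library 1 and 35525 CPM in NI library 2, the higher in Rbfox2, 4569 to 5333 CPM in Empty and 3007 to 3559 CPM in T7-TIA1, where Rbfox2 was above Empty. Listed epithelial markers, 3 of 11, summed to 365 to 627 CPM in shSCR and to 46.2 to 276 CPM in the knockdown libraries. Blood markers, 2 of 3 listed, summed to 7.34 to 8.74 CPM in NI, 162 to 279 CPM in shSCR and 247 to 1736 CPM in the knockdown libraries. In these bulk samples fewer cells of a type and less RNA per cell cannot be told apart, and the part of the cell mixture or of the feeder MEFs in the Rbfox2 difference was not tested.

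**Figure D2:**
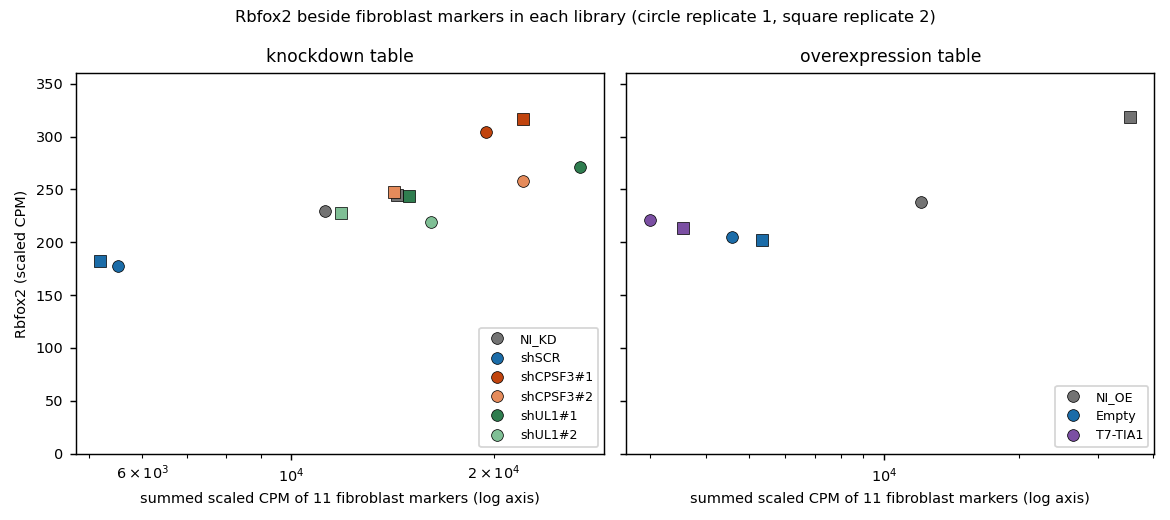
Rbfox2 level against the summed level of the listed fibroblast markers, both in CPM as deposited (log axis for the markers), 1 point per library, coloured by group and in 1 panel per dataset. In the knockdown panel the shSCR libraries are lowest on both axes (5196 and 5514 for the markers) and shCPSF3#1 is highest in Rbfox2.

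Qk (chr17:10202601-10319854, minus strand) had its highest group mean in NI and its lowest in the knockdown groups, although shSCR library 2 was the highest single library of the knockdown dataset. It was measured at 274.04 and 270.91 CPM in NI, 222.21 and 277.6 in shSCR, 186.04 and 188.24 in shCPSF3#1, 195.1 and 221.09 in shCPSF3#2, 179.88 and 219.35 in shUL1#1, and 209.67 and 218.65 in shUL1#2. All 8 knockdown libraries lay below both shSCR libraries, although the shSCR libraries lay far from each other. The differences from shSCR, -0.332 (SE 0.126) in CPSF3 knockdown and -0.267 (SE 0.126) in UL1 knockdown, did not pass the test (adjusted p = 0.0847 and 0.207); when the fit was blocked by replicate number the first passed (adjusted p = 0.0253). Against NI, Qk fell by 0.465 in CPSF3 knockdown (SE 0.126, adjusted p = 0.0185) and by 0.400 in UL1 knockdown (SE 0.126, adjusted p = 0.0341), while shSCR differed from NI by -0.133 (adjusted p = 0.491). With libraries rescaled to equal totals neither fall passed (-0.424, adjusted p = 0.0554, and -0.295, adjusted p = 0.161). The call in CPSF3 knockdown was lost without either NI library (adjusted p = 0.110 and 0.0922), and that in UL1 knockdown in 5 of 12 fits that left out 1 library (0.0661 to 0.162). The comparisons of the knockdowns with NI were added after the data were seen, and all comparisons with NI, like all with shSCR, share the same 2 control libraries. Qk in the overexpression libraries lay at 268.2 and 231.19 CPM in NI, 223.02 and 221.68 in Empty and 225.34 and 227.43 in T7-TIA1, with no call.

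Ptbp1 (chr10:79854427-79864771, plus strand) was highest before reprogramming in the knockdown dataset. It measured 401.64 and 423.44 CPM in NI, 246.25 and 323.6 in shSCR, 184.97 and 201.16 in shCPSF3#1, 206.12 and 334.91 in shCPSF3#2, 208.49 and 303.82 in shUL1#1, and 233.74 and 295.76 in shUL1#2. All 10 day-12 libraries were below both NI libraries, and in each of the 5 day-12 groups library 2 was the higher. Ptbp1 fell against NI by 0.870 (SE 0.236, adjusted p = 0.0183) in CPSF3 knockdown and by 0.679 (SE 0.236, adjusted p = 0.0483) in UL1 knockdown. The call in CPSF3 knockdown was lost without either NI library, where the differences were -0.908 and -0.832. The difference of shSCR from NI, -0.545 (SE 0.273), did not pass (adjusted p = 0.140). It passed when the limma fit was blocked by replicate number (adjusted p = 0.0188). Differences from shSCR were smaller than the spread between libraries, -0.325 for CPSF3 knockdown (adjusted p = 0.318) and -0.134 for UL1 knockdown (adjusted p = 0.742). The call for UL1 knockdown against NI was lost in 9 of 12 fits that left out 1 library, and with libraries rescaled to equal totals (adjusted p = 0.129). No such decline was measured in the overexpression dataset, where Ptbp1 was at 425.65 and 326.92 CPM in NI, 368.43 and 368.11 in Empty, and 368.18 and 369.47 in T7-TIA1.

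Ptbp2 (chr3:119718742-119784466, minus strand) fell at day 12. Its level was 64.976 and 56.966 CPM in NI, 36.665 and 45.815 in shSCR, 34.047 and 39.952 in shCPSF3#1, 36.626 and 46.395 in shCPSF3#2, 43.955 and 48.242 in shUL1#1, and 40.133 and 43.201 in shUL1#2. Every day-12 library was below both NI libraries, and in the order of the day-12 means neighbouring groups overlapped, apart from shUL1#1, which lay above shUL1#2. The fall was 0.558 (SE 0.165) in shSCR against NI (adjusted p = 0.0256), 0.629 (SE 0.143) in CPSF3 knockdown against NI (adjusted p = 0.00884) and 0.465 (SE 0.143) in UL1 knockdown against NI (adjusted p = 0.0307), the last of which was lost on rescaling to equal totals (-0.362, adjusted p = 0.138) and in 5 of 12 fits that left out 1 library. Other markers fell with it in the knockdown dataset. Neural markers, 2 of 4 listed (Tubb3 and Nes), summed to 221.93 to 292.55 CPM in NI and 51.347 to 79.329 CPM in the day-12 libraries. Muscle markers, 2 of 4 listed (Acta2 and Des), summed to 4613.3 to 5183.8 CPM and 252.09 to 764.58 CPM. In the overexpression dataset the neural sum, with 3 of 4 listed, was 196.54 to 259.88 CPM in NI and 94.229 to 171.67 CPM at day 12. The muscle sum there, with 1 of 4 listed, was Acta2 alone, at 4060.3 to 6829.7 CPM and 269.99 to 332.2 CPM. These few genes do not show that neural or muscle cells were present, and the part of other cells in the Ptbp2 difference was not tested. Without NI library 1 none of the 6 calls of Qk, Ptbp1 and Ptbp2 in a knockdown against NI passed (adjusted p from 0.0888 to 0.211). The fall in shSCR was lost without NI library 1 (adjusted p = 0.145), NI library 2 (0.0568) or shSCR library 1 (0.137), and with libraries rescaled to equal totals (0.129). Ptbp2 in overexpression libraries was at 61.264 and 50.911 CPM in NI, 47.48 and 40.272 in Empty, and 50.333 and 49.534 in T7-TIA1, a difference of -0.346 from NI to Empty (adjusted p = 0.0929).

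Ptbp3 (chr4:59471868-59549364, minus strand) had no call in the knockdown dataset as deposited. It stood at 170.47 and 186.63 CPM in NI, 207.74 and 175.12 in shSCR, 131.59 and 97.72 in shCPSF3#1, 173.17 and 119.47 in shCPSF3#2, 182.44 and 136.51 in shUL1#1, and 171.53 and 129.89 in shUL1#2. Library 1 was the higher in all 5 day-12 groups, and each group overlapped its neighbour in the order of means. CPSF3 knockdown differed from shSCR by -0.575 (SE 0.215), which did not pass (adjusted p = 0.0802). With libraries rescaled to equal totals it was -0.669 and passed (adjusted p = 0.0307), and when blocked by replicate number it passed as well (adjusted p = 0.0101). Ptbp3 in overexpression libraries was at 174.84 and 184.01 CPM in NI, 136.11 and 123.43 in Empty, and 133.57 and 130.63 in T7-TIA1. It fell by 0.466 in Empty against NI (SE 0.0901, adjusted p = 0.0152), the one call among the 5 genes there. That call was lost without either Empty library (adjusted p = 0.0660 and 0.101) and without either T7-TIA1 library (0.0540 and 0.0537), and with libraries rescaled to equal totals, where the difference was -0.281 (adjusted p = 0.0622).

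**Figure D3:**
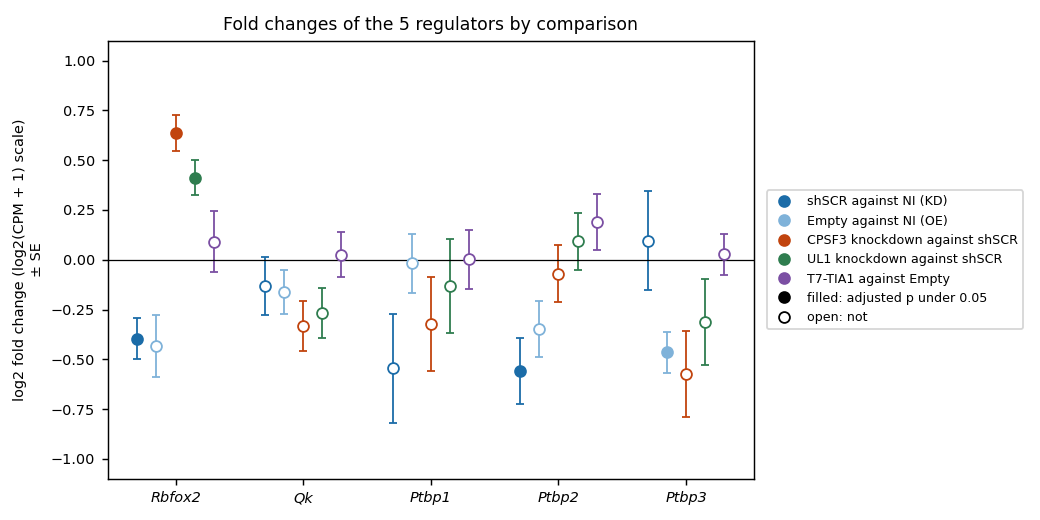
Differences of the 5 genes between groups on the log2(CPM + 1) scale, with bars of 1 standard error from the limma fit, grouped by gene and coloured by comparison; filled points passed the test at an adjusted p under 0.05. Rbfox2 is the gene above 0 and past the test in both knockdowns against shSCR, at 0.637 and 0.413.

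By count, 2 of the 5 genes were called in shSCR against NI, where 44.5% of all listed genes were, 1 in CPSF3 knockdown against shSCR (26.1%), 1 in UL1 knockdown against shSCR (10.5%) and 1 in Empty against NI (46.5%). Against NI, 3 were called in CPSF3 knockdown (45.6%) and 3 in UL1 knockdown (42.9%). None was called between CPSF3 and UL1 knockdown (0.0424%) or between T7-TIA1 and Empty, where limma called 0% and 393 genes of the table had an unadjusted p under 0.05. The members' counts therefore did not stand out from their tables. In T7-TIA1 against Empty even Tia1 was not called (limma adjusted p = 0.222), so a missing call there does not show equal levels. With the spread taken from only the groups compared, 1525 genes had an unadjusted p under 0.05 and 2 were called. Rescaling to equal totals moved the median of all genes from 0.0005 to 0.131 in shSCR against NI, from 0.0032 to 0.106 in UL1 knockdown against NI and from 0.0128 to 0.192 in Empty against NI, and changed the split of called genes into higher and lower from 2122 and 2075 to 2447 and 1540, from 2215 and 1830 to 2531 and 1255, and from 2164 and 2237 to 3143 and 1554. In CPSF3 knockdown against shSCR the split went from 1576 and 882 to 1169 and 938, and in the same knockdown against NI from 2429 and 1877 to 2509 and 1451.

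The genes whose levels ran most like each member over the 12 knockdown libraries are a description, since the points share the same libraries and scaling. For Rbfox2 they were Mid1, Tusc3 and Snx15 (Pearson r of 0.973, 0.969 and 0.969, with 0.885, 0.877 and 0.938 over the 6 overexpression libraries). Ptbp1 ran with Trip13, Naa15 and Grk6 (r = 0.995, 0.993 and 0.991; 0.940, 0.945 and 0.912 over the other dataset) and Ptbp3 with Snap23, Sept10 and Uhrf2 (0.912, 0.910 and 0.899; 0.950, 0.786 and 0.945). The likeness carried over less for Qk, with Pfdn1 at 0.986 and Taf3 at 0.981 against -0.117 and 0.262 in the other dataset, while Ythdc2 had 0.970 and 0.969. Ptbp2 ran with Myg1, Smarcb1 and Atp5g3 (0.973, 0.969 and 0.965; 0.781, 0.554 and 0.586).

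Factors that work with these regulators, or act beside them, were counted in 4 lists, to be read against the shares called over all genes: 44.5% in shSCR against NI, 26.1% in CPSF3 knockdown and 10.5% in UL1 knockdown against shSCR, and 46.5% in Empty against NI. Of 9 RBFOX relatives and members of the LASR complex, in which RBFOX proteins work, 7 were listed. In shSCR against NI 2 of them fell, Hnrnph1 by 0.735 and Hnrnpm by 0.89 (limma adjusted p = 0.0084 and 0.0352), and the list's median was 0.07 against 0.0005 for all genes. In Empty against NI Hnrnpc rose by 0.411 and Matr3 rose by 0.402, while Hnrnph1 fell by 0.605. The list's median there was 0.31 against 0.01. In neither knockdown against shSCR (list medians -0.20 and -0.09) nor in T7-TIA1 against Empty (0.07) did a member of the list pass the test.

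Of 10 PTB partners and neural antagonists 3 were listed. Hnrnpll, an hnRNP L paralogue, fell by 0.712 in shSCR against NI (adjusted p = 0.00232) and by 0.556 in Empty against NI, where Raver1, a PTB co-repressor, rose by 0.369. Of the 4 STAR-family relatives of Qk, 2 were listed in the knockdown table and 3 in the other. Khdrbs1, which encodes SAM68, fell by 0.619 in shSCR against NI (adjusted p = 0.0358) and by 0.369 in Empty against NI, where Khdrbs3 fell by 1.52. No partner of PTB or STAR relative was called in a knockdown against shSCR or in T7-TIA1 against Empty.

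Of 11 other regulators of epithelial and mesenchymal splicing 6 were listed in each dataset. Rbm47 was among them only in the knockdown dataset and Mbnl3 only in the overexpression dataset, so the list's medians cover different genes. From NI to shSCR Celf2 fell by 1.43 and Mbnl1 by 1.46, and Rbm47, an epithelial splicing factor, rose by 3.61. Against shSCR, CPSF3 knockdown showed the opposite sign for the same genes: Celf2 rose by 0.784, Mbnl1 rose by 1.02 and Rbm47 fell by 0.987. In UL1 knockdown Celf2 rose by 0.882 and Mbnl1 rose by 0.673. The list's median was -0.36 in shSCR against NI, -0.15 and -0.04 in the knockdowns and -0.84 in Empty against NI. In Empty against NI 4 of the 6 fell: Celf2 by 1.22, Mbnl1 by 0.89, Mbnl3 by 0.887 and Mbnl2 by 0.784. The opposite signs share the shSCR libraries, and the marker levels given above for Rbfox2 moved with these genes too; the part of the cell mixture was not tested.

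Splicing was read as percent spliced in (PSI), the percentage of reads over an event that support its inclusion: use of the exon, of the splice site, or retention of the intron. Of the 231 events in the 5 genes, 66 were exons, 57 introns, 71 alternative 3′ splice sites and 37 alternative 5′ splice sites, and 211 had at least 10 reads in all 18 libraries. Most were used in 1 form throughout. PSI was at or under 5 in every library for 103 of the 211 and at or over 95 for 71, and 190 of them ranged over less than 10 PSI across the libraries, with a median range of 0.95. All 34 such events of Ptbp1 ranged over less than 10 PSI, as did 41 of 42 in Ptbp3, 26 of 28 in Qk, 53 of 61 in Rbfox2 and 36 of 46 in Ptbp2.

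Tests were run on the log2 ratio of inclusion to exclusion reads, for events with at least 10 of each summed over the dataset, which left 106 member events in the knockdown dataset and 79 in the overexpression dataset. In shSCR against NI 2 of 106 were called, where 5.9% of all events tested were, and 21 had an unadjusted p under 0.05. In CPSF3 knockdown against shSCR 2 of 106 were called (2.82% of all). UL1 knockdown against shSCR had 0 by limma (1.35% of all, and 17 member events at an unadjusted p under 0.05), CPSF3 against UL1 knockdown had 0 (0.000651%, 12 events), and T7-TIA1 against Empty had 0 of 79 (0.0591%, 5 events). Empty against NI had 1 of 79 (1.05%). Against NI 5 of 106 were called in CPSF3 knockdown (2.9%) and 5 in UL1 knockdown (3.21%), and in both these were the same 5 events. In the comparisons with shSCR and in those of the controls with NI the members' counts lay below or close to the shares over all events. In the knockdowns against NI they lay above, a difference that was not tested. Complementary sites of a Ptbp2 3′ splice site choice counted separately there. Without NI library 1 no member event was called in either knockdown against NI.

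The study's rule on PSI, applied here without a test, asked for a difference of at least 10 PSI between group means and of at least 5 PSI between the nearest libraries, in each shRNA. It was met by 5 member events in shSCR against NI (1.22% of all events covered), 4 in CPSF3 knockdown against shSCR (0.371%) and 2 in UL1 knockdown against shSCR (0.315%). Against NI it was met by 4 in CPSF3 knockdown (0.345%) and 4 in UL1 knockdown (0.389%). In Empty against NI (0.679%) and T7-TIA1 against Empty (0.342%) no member event met it. The comparisons of shSCR with NI, CPSF3 knockdown with shSCR and UL1 knockdown with shSCR covered 213, 211 and 213 of the member events, and the members' counts there were above the shares over all events covered, a difference that was not tested. Complementary splice sites of 1 decision count separately, in the members as in the whole table, and the 5, 4 and 2 events of the first comparisons stood for 3, 3 and 1 decisions.

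**Figure D4:**
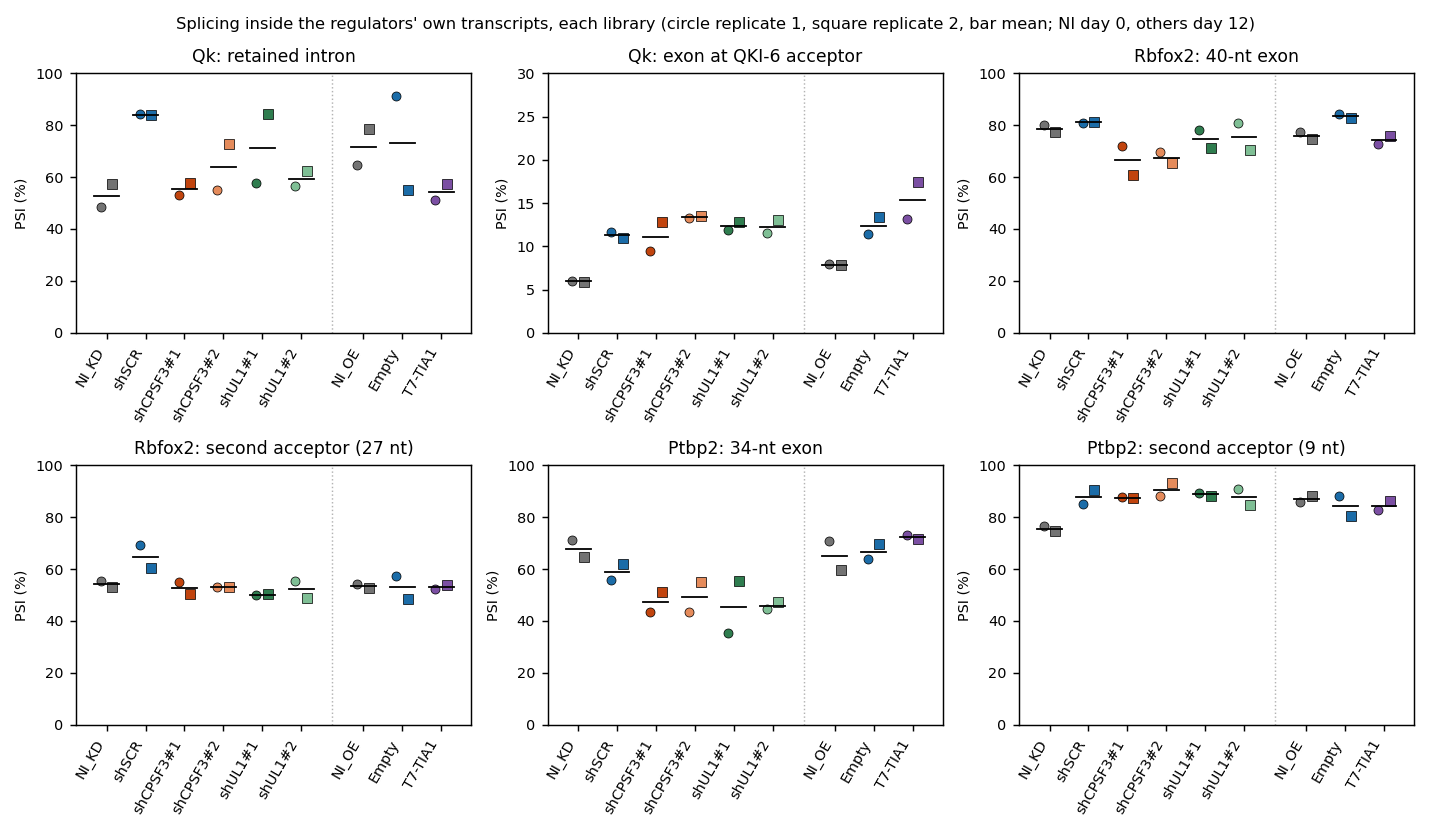
Percent spliced in of 6 member events, 1 panel per event (axes from 0 to 100, and from 0 to 30 for the Qk exon), with 1 point per library and a short bar at each group mean. The retained Qk intron separates shSCR, at 84.1 and 83.85, from NI, at 48.4 and 57.3.

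The largest splicing difference in PSI among the events described here was in Qk, in the 685-nt intron at chr17:10215475-10216159 (MmuINT1027860) that lies directly before the 325-residue ending. Reads retaining it made up 48.4 and 57.3 PSI in NI, 84.1 and 83.85 in shSCR, 53.2 and 57.6 in shCPSF3#1, 54.9 and 72.6 in shCPSF3#2, 57.8 and 84.3 in shUL1#1, and 56.45 and 62.2 in shUL1#2. Both shSCR libraries stood above NI and above all CPSF3 knockdown libraries, while shUL1#1 library 2 was as high as shSCR. Retention rose from NI to shSCR by 31.2 PSI, or 2.17 (SE 0.464) in log2 read ratio (adjusted p = 0.00961), and fell by 1.77 (SE 0.397) in CPSF3 knockdown against shSCR, a difference of -24.4 PSI (adjusted p = 0.0217). UL1 knockdown differed from shSCR by -18.8 PSI, or -1.40 (SE 0.400), and did not pass (adjusted p = 0.0954). When the limma fit was blocked by replicate number it passed (adjusted p = 0.0309), and without shUL1#1 library 2 the difference was -1.86. The event had 50 to 174 reads in a library. The rise was lost without NI library 1 (adjusted p = 0.0889) or shSCR library 1 (0.0667), and the fall without either shSCR library (0.159 and 0.104), shCPSF3#1 library 1 (0.0584) or shCPSF3#2 library 1 (0.0725).

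The same intron was read differently in the overexpression dataset, at 64.5 and 78.6 PSI in NI, 91.0 and 55.2 in Empty, and 51.4 and 57.4 in T7-TIA1. The Empty libraries spanned the NI libraries, and neither Empty against NI (0.280, adjusted p = 0.909) nor T7-TIA1 against Empty (-1.23, adjusted p = 0.921) passed. The change from NI to shSCR against that from NI to Empty differed by 1.89 (adjusted p = 0.513; 0.0175% of all events called, 0 of 111 member events by limma and 12 at an unadjusted p under 0.05).

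A second Qk event concerned the acceptor of the 319-residue ending, printed above. A 119-nt exon at chr17:10214076-10214194 (MmuEX1021337) begins at that acceptor and can be passed over for the exon of the 341-residue ending. Its PSI was 6.03 and 5.91 in NI, 11.65 and 10.97 in shSCR, 9.47 and 12.8 in shCPSF3#1, 13.3 and 13.45 in shCPSF3#2, 11.85 and 12.8 in shUL1#1, and 11.5 and 13.02 in shUL1#2. Every day-12 library was above both NI libraries, and the day-12 groups lay together. Inclusion rose by 0.987 (SE 0.261, log2 read ratio) in shSCR against NI (adjusted p = 0.0312), 5.34 PSI, by 1.12 (SE 0.232) in CPSF3 knockdown against NI (adjusted p = 0.0118) and by 1.13 (SE 0.231) in UL1 knockdown against NI (adjusted p = 0.0107), with 370 to 600 reads in a library. Overexpression libraries had a PSI of 7.95 and 7.82 in NI, 11.4 and 13.4 in Empty, and 13.2 and 17.4 in T7-TIA1, without overlap of NI and day 12; Empty against NI was at 0.717 (adjusted p = 0.318), and the 2 time courses differed by 0.27 (adjusted p = 0.841). The shSCR call was lost in each of the 4 fits that left out a library of either group (adjusted p from 0.0918 to 0.169), and the calls of the knockdowns against NI in 3 and 2 of 12 fits.

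In Rbfox2 the 40-nt exon (MmuEX0039029) was included less in CPSF3 knockdown than in shSCR. Its PSI was 79.9 and 77.3 in NI, 80.8 and 81.25 in shSCR, 71.9 and 61.0 in shCPSF3#1, 69.6 and 65.3 in shCPSF3#2, 78.3 and 71.2 in shUL1#1, and 80.7 and 70.4 in shUL1#2. All 4 CPSF3 knockdown libraries lay below NI and shSCR, and the UL1 knockdown libraries reached from their range to that of the controls. Inclusion fell by 1.06 (SE 0.263) in CPSF3 knockdown against shSCR, a difference of -14.1 PSI (adjusted p = 0.0346), with 475 to 870 reads in a library. UL1 knockdown differed from shSCR by -0.482 (adjusted p = 0.423), and the difference between the knockdowns, -0.583, did not pass (adjusted p = 0.597). The call was lost without either shSCR library (adjusted p = 0.195 and 0.166), shCPSF3#1 library 2 (0.109) or either shCPSF3#2 library (0.0568 and 0.0700). T7-TIA1, at 72.55 and 75.75 PSI, was below Empty, at 84.2 and 82.9, and near NI, at 77.4 and 74.6; the difference of -9.42 PSI did not pass (adjusted p = 0.619). The 43-nt exon (MmuEX0039030) was nearly always skipped, at 1.95 to 6.23 PSI, and so was a 49-nt exon (MmuEX0039028), at 0 to 2.84 PSI.

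Elsewhere in Rbfox2 a choice between neighbouring 3′ splice sites (MmuALTA0014939) adds or leaves out 12 coding bases, gtctccctttag, at chr15:77098073-77098084. The site downstream of them had 69.3 and 60.2 PSI in shSCR, against 55.3 and 53.1 in NI, 50.6 to 54.9 in the CPSF3 knockdown libraries, 48.9 to 55.6 in the UL1 knockdown libraries and 48.4 to 57.4 in the overexpression dataset. Both shSCR libraries were the highest of the series. The differences from shSCR were -11.9 PSI in CPSF3 knockdown (adjusted p = 0.0873) and -13.5 PSI in UL1 knockdown (adjusted p = 0.0769). Blocked by replicate number the latter passed (limma adjusted p = 0.0489), and in the unblocked fit neither passed the test. A 5′ splice site choice of an upstream exon (MmuALTD1021057) was at 96.5 and 100 PSI in NI and 77.2 and 83.2 in shSCR for its main site, with 17 to 53 reads in a library, and did not pass either (adjusted p = 0.0632). It was at 90.0 to 95.5 in the UL1 knockdown libraries, 12.8 PSI above shSCR (adjusted p = 0.198).

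The 34-nt exon of Ptbp2 (MmuEX0037640) was included less after knockdown than in NI. Its PSI was 71.05 and 64.6 in NI, 55.7 and 62.1 in shSCR, 43.4 and 51.2 in shCPSF3#1, 43.3 and 55.0 in shCPSF3#2, 35.4 and 55.5 in shUL1#1, and 44.45 and 47.3 in shUL1#2. All 8 knockdown libraries were below both NI libraries, and below both shSCR libraries by as little as the step from 55.5 to 55.7. Inclusion fell against NI by 1.16 (SE 0.302) in CPSF3 knockdown, a difference of -19.6 PSI (adjusted p = 0.0439), and by 1.29 (SE 0.30) in UL1 knockdown, a difference of -22.2 PSI (adjusted p = 0.0228). Against shSCR the differences, -0.616 and -0.753, did not pass (adjusted p = 0.323 and 0.268), and shSCR against NI, at -0.540, did not either (adjusted p = 0.401). The exon had 96 to 205 reads in a library. Both calls were lost without NI library 1 (adjusted p = 0.357 and 0.247) or NI library 2 (0.115 and 0.0752). In all the CPSF3 knockdown call was lost in 7 of 12 fits that left out 1 library (adjusted p from 0.0503 to 0.357) and the UL1 knockdown call in 4 (0.0541 to 0.247).

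In the overexpression dataset the exon was at 70.9 and 59.5 PSI in NI, 63.7 and 69.7 in Empty, and 73.0 and 71.6 in T7-TIA1. NI and Empty overlapped, both T7-TIA1 libraries were above them, and no test passed. The corresponding exon of Ptbp1 (MmuEX0037629) was nearly constant and mostly included, between 91.12 and 96.01 PSI over the 18 libraries, and that of Ptbp3 (MmuEX6093759) was between 99.78 and 100. The exons printed above thus spanned different ranges of use: Ptbp2 varied most between libraries, Ptbp1 little, and Ptbp3 was close to full inclusion throughout. A separate 34-nt exon near the 5′ end of Ptbp3 (MmuEX0040286, chr4:59546149-59546182), of the same length but at another place, lay at 9.2 to 25.1 PSI with no call.

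**Figure D5:**
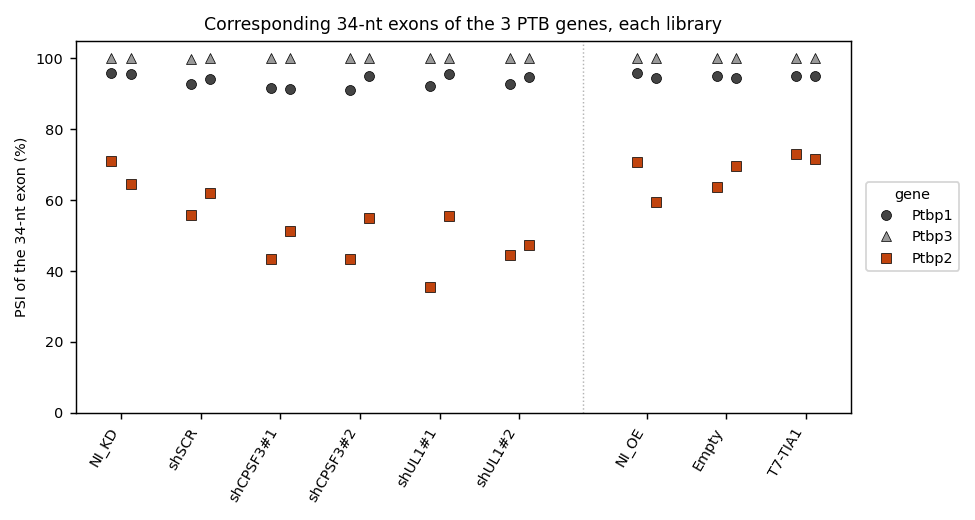
Percent spliced in of the 34-nt exons of Ptbp1, Ptbp2 and Ptbp3 in every library (1 point per library, grouped by condition, axis from 0 to 100). Ptbp1 stays between 91.12 and 96.01 and Ptbp3 between 99.78 and 100, while Ptbp2 reaches from 35.4 in a shUL1#1 library to 73.0 in a T7-TIA1 library.

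Further decisions in Ptbp2 set NI apart from day 12 in the knockdown dataset. A choice between 3′ splice sites (MmuALTA0014422) leaves out or adds 15 coding bases, ggcttcctgttgcag, at chr3:119726206-119726220. One of its sites rose from 76.4 and 74.6 PSI in NI to 84.5 to 93.1 in the 8 knockdown libraries, by 1.31 in CPSF3 knockdown (adjusted p = 0.0272) and 1.19 in UL1 knockdown (adjusted p = 0.0413) on the log2 read ratio. These calls were lost in 5 and 7 of the 12 fits that left out 1 library. The shSCR libraries were at 85.0 and 90.4, 12.2 PSI above NI, and did not pass (adjusted p = 0.0758). In the other dataset the NI libraries, at 85.83 and 88.0, were already within the range of the day-12 libraries, which lay at 88.1 and 80.3 in Empty and 82.78 and 86.05 in T7-TIA1. The 7081-nt intron at chr3:119740511-119747591 (MmuINT0128329) was retained at 12.95 and 14.2 PSI in NI, 22.2 and 22.8 in shSCR, 19.9 to 26.1 in CPSF3 knockdown and 23.4 to 30.6 in UL1 knockdown. Retention rose against NI by 1.22 in UL1 knockdown (SE 0.244, adjusted p = 0.00898) and by 0.953 in CPSF3 knockdown (SE 0.248, adjusted p = 0.0427). The call in UL1 knockdown was lost without either NI library, where the differences were 1.15 and 1.3. The difference in shSCR was 0.879 (adjusted p = 0.0774), and 10 of 12 fits that left out 1 library lost the call in CPSF3 knockdown. Empty, at 26.4 and 14.95 PSI, spanned the NI libraries, at 17.9 and 21.4.

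With each knockdown taken over its 2 shRNAs, the one called event of Ptbp3 was a 125-nt exon (MmuEX6093758, chr4:59485607-59485731) that was almost always included. It fell from 100 and 99.55 PSI in the overexpression NI libraries to 95.89 and 97.51 in Empty, by 3.10 (SE 0.674) in log2 read ratio (adjusted p = 0.0307), and stood at 97.52 and 98.75 in T7-TIA1 and at 97.87 to 100 in the knockdown dataset. The call was lost without either NI library or without Empty library 1.

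Exons in genes known to be controlled by the 3 regulators were counted as lists, each including exons that no regulator is known to touch. In 12 PTB target genes, which include Ptbp1 and Ptbp2 themselves, 73 exons were tested in the knockdown dataset. Of these 8 rose and 4 fell in shSCR against NI (16.4%, against 8.78% of all exons), 2 rose and 6 fell in CPSF3 knockdown against shSCR (10.96% against 4.95%), and 0 rose and 3 fell in UL1 knockdown against shSCR (4.11% against 2.76%). In Empty against NI 1 of 66 fell (1.52%, against 2.52% of all exons). Against NI 3 rose and 3 fell in CPSF3 knockdown (8.22%, against 5.51% of all exons) and 1 rose and 3 fell in UL1 knockdown (5.48% against 5.37%). A 155-nt exon of Pkm (MmuEX0035415) went from 21.4 and 22.4 PSI in NI to 5.94 and 3.98 in shSCR (-2.39 in log2 read ratio, adjusted p = 0.00156). It lay between 4.22 and 12.1 in the knockdown libraries. Pkm transcripts carry PTB-repressed alternative exons, and whether this exon is one of those was not checked. A 126-nt exon of Tpm1 (MmuEX0048595) went from 2.52 and 2.42 PSI to 15.9 and 7.34 (2.29, adjusted p = 0.00015). It was lower again in CPSF3 knockdown (4.49 to 6.16 PSI, -1.1015 in log2 read ratio, adjusted p = 0.0270) and in UL1 knockdown (4.67 to 5.57 PSI, -1.22, adjusted p = 0.0234). Exons of Mef2a (MmuEX6011451, 98.12 to 100 PSI in the series) and Actn1 (MmuEX6081840, 99.76 to 99.98) stayed near full inclusion, with read ratios that differed in shSCR against NI by 3.66 (adjusted p = 0.0479) and -2.07 (adjusted p = 0.00951).

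In 11 RBFOX2 target genes, Rbfox2 and Ptbp2 among them, 112 exons were tested. In shSCR against NI 12 rose and 7 fell (16.96%, against 8.78% of all exons). In CPSF3 knockdown against shSCR 4 rose and 7 fell (9.82% against 4.95%), and in UL1 knockdown against shSCR 1 rose and 1 fell (1.79% against 2.76%). Against NI 6 rose and 14 fell in CPSF3 knockdown (17.9%, against 5.51% of all exons) and 6 rose and 11 fell in UL1 knockdown (15.2% against 5.37%). Several of the called exons in each lay in Fn1 and in Mbnl1, so these calls do not stand for separate genes. In Empty against NI 4 of 95 rose and 4 fell (8.42%, against 2.52% of all exons), and in T7-TIA1 against Empty 3 fell (3.158%, against 0.135%), all of them exons of Fn1 (MmuEX0019420, MmuEX0019421 and MmuEX0019425). The 63-nt exon of Enah (MmuEX0016847), a regulator of actin assembly, rose from 2.89 and 1.85 PSI in NI to 19.3 and 29.6 in shSCR (3.68, adjusted p = 0.0376) and from 1.93 and 2.2 to 30.2 and 23.6 in Empty (4.07, adjusted p = 1.08e-06). It spread from 4.27 to 26.1 PSI in the knockdown libraries. A 94-nt exon of Fgfr2 (MmuEX0019159) fell from 98.6 and 98.5 to 86.5 and 84.4 PSI in shSCR (-3.35, adjusted p = 0.00468). It fell from 100 in both NI libraries to 91.1 and 93.1 in Empty (-5.44, adjusted p = 0.00517). In CPSF3 knockdown it was higher than in shSCR (2.84, adjusted p = 0.00583), at 91.7 to 100 PSI. Another Fgfr2 exon (MmuEX6014606) went the other way, by 3.08 in shSCR against NI and -1.82 in CPSF3 knockdown against shSCR (limma adjusted p = 0.0031 and 0.0094). The 111-nt exon of Cttn (MmuEX0013133), another actin regulator, fell by 3.12 in log2 read ratio in shSCR against NI and rose by 1.27 in UL1 knockdown against shSCR (adjusted p = 0.00707), within 96.03 to 99.64 PSI, and a 107-nt exon of Fn1 (MmuEX6025178), which encodes fibronectin, within 99.55 to 99.97 PSI, rose by 3.21 and then fell by 1.31 in CPSF3 knockdown against shSCR (adjusted p = 0.0176).

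Of 8 QKI target genes 6 had tested exons, 58 in all. In shSCR against NI 4 rose and 0 fell (6.90%, below the 8.78% of all exons). In CPSF3 knockdown against shSCR 1 rose and 2 fell (5.17% against 4.95%), and in UL1 knockdown against shSCR limma called 0 (2.76% of all exons). Against NI 6 rose and 0 fell in CPSF3 knockdown (10.3%, against 5.51% of all exons) and 5 rose and 0 fell in UL1 knockdown (8.62% against 5.37%). Several of the called exons in each lay in Adam15. In Empty against NI 2 of 47 rose (4.26%, against 2.52% of all exons). The 129-nt exon of Bin1 (MmuEX0007975), a membrane-bending protein, rose from 12.0 and 9.92 PSI in NI to 34.2 and 35.5 in shSCR (2.12, adjusted p = 6.41e-05) and from 11.3 and 11.8 to 47.3 and 37.4 in Empty (2.48, adjusted p = 0.000224). The knockdown libraries, at 20.2 to 31.3 PSI, lay between NI and shSCR. An exon of Macf1 (MmuEX0027475, 83.55 to 100 PSI) rose by 3.40 in log2 read ratio in shSCR against NI (adjusted p = 0.0464). Exons of Adam15 (MmuEX6072151) and Numb (MmuEX6082018), at no less than 97.23 PSI, rose in CPSF3 knockdown against NI by 2.48 and 3.05 (adjusted p = 0.0286 and 0.0445), and that of Adam15 also in UL1 knockdown against NI, by 2.81 (adjusted p = 0.0216). No test linked the level or splicing of a member to any of these exons, and each exon list was described by its counts only.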

How the data were processed

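RNA was sequenced from 18 mouse libraries in 9 groups of 2, grouped by the titles and infection labels, with the day taken from the titles where the time label differed. The 5 genes, their events and the gene lists were chosen with earlier results of these data known. For expression, the authors aligned reads to mm10 with STAR 2.7.1a and computed CPM with edgeR 3.16.5; the deposited signal is that CPM after a scaling of each library, in 2 tables scaled and filtered separately and so tested separately. For splicing, the authors ran vast-tools with Mm218 annotation, and the deposited percent spliced in stands beside its read support. No column of the tables was left unused for lack of a sample.

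Genes were tested with limma 3.58.1 (trend) in R 4.3.3 on log2(CPM + 1) over all groups of a table, and events with limma (robust) on the log2 ratio of both read classes, each raised by 1 read, weighted by 1/(counting variance + 0.1), for events with at least 10 reads in every library. P-values are two-sided and Benjamini-Hochberg adjusted over all features; calls are at 0.05. Named events passed a test or the PSI rule in a comparison, or were fixed by identifier; like genes were the 3 with the highest r; up to 4 called genes or exons of each list, those with the largest change, are named, except for a gene of the LASR list that is not reported here. The comparisons of the knockdowns with NI were added after the data were seen. The values of each expression column were whole multiples of 1 step (tolerance 0.02 reads), which gave between 98900000 and 109000000 reads over listed genes in a library. A count test with edgeR was not run; limma-voom on those reads was run instead, chosen after seeing the data. Depth of splicing is given by 398925 to 449204 events covered in a library.

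On simulated data the gene test recovered 48% of changes of 1 and 90% of changes of 2 (log2) for shSCR against NI, and 65% and 90% for Empty against NI. The event test, on 20000 simulated events, recovered 4% and 19%, and 4% and 32%, so an event that was not called may still differ. Intervals and SEs do not cover duplicate PCR reads. Alternatives were a rescaling of libraries to equal totals, other pseudocounts and read minimums, a replicate block, only the groups compared, PSI in place of reads, and leaving out each library. Figures were drawn with matplotlib 3.10.9.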

Additional observations from a re-analysis of the deposited data

How the results depend on the processing

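Counts of called members moved by over 1.5 times under some alternatives; where no cause is named, the cause was not tested. With libraries rescaled to equal totals, called genes went from 2 to 0 in shSCR against NI, from 1 to 2 in CPSF3 knockdown against shSCR (Ptbp3 gained), from 1 to 0 in UL1 knockdown against shSCR, from 3 to 0 in UL1 knockdown against NI and from 1 to 0 in Empty against NI, where Qk turned to 0.02203 (log2). With the spread taken from only the groups compared, which leaves fewer samples, they were 0 in shSCR against NI, in both knockdowns against shSCR and in Empty against NI, and called events were 1 in shSCR against NI and 3 in UL1 knockdown against NI. Among single genes and events 8 calls were lost that way, 1 was lost with limma-voom on recovered reads (Ptbp1 in UL1 knockdown against NI, adjusted p = 0.0547), and 0 with log2(CPM + 5); a count test with edgeR was not run.

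The replicate numbers shared by the groups do not come with a statement of what they mark. Deviations from group means of same-numbered libraries correlated at 0.674 to 0.949 for genes and 0.0849 to 0.220 for PSI between the day-12 groups of the knockdown dataset. Between these and NI the correlations were -0.127 to 0.0218 and -0.0361 to 0.0271. In the overexpression dataset they were 0.171 to 0.308 and 0.0315 to 0.133. The numbers thus went together among the day-12 knockdown groups and not with the NI of that dataset. In the overexpression dataset correlations were low in every pair, those with NI included. The block was kept as an alternative. With a replicate block, called genes were 3 in shSCR against NI, 3 in CPSF3 knockdown against shSCR, 1 in UL1 knockdown against shSCR, 5 and 3 in these knockdowns against NI, 1 in Empty against NI and 0 in T7-TIA1 against Empty. Calls over all genes rose too, from 4197 to 5608, 2458 to 4698 and 987 to 2768 of 9435 in the first 3 comparisons. Called events were 3 in shSCR against NI, 4 in CPSF3 knockdown against shSCR, 2 in UL1 knockdown against shSCR, 6 and 6 in the knockdowns against NI, 1 in Empty against NI, and 0 in T7-TIA1 against Empty, between the knockdowns and between the time courses, while calls over all 153525 events rose from 9052 to 11340, 4324 to 6060 and 2068 to 3089 in the first 3. Genes gained under the block were Ptbp1 in shSCR against NI (adjusted p = 0.0188), Qk and Ptbp3 in CPSF3 knockdown against shSCR (0.0253 and 0.0101), and Rbfox2 and Ptbp3 in that knockdown against NI (0.0379 and 0.0154). Named events gained were the Qk intron and the Rbfox2 3′ splice site in UL1 knockdown against shSCR (0.0309 and 0.0489) and the Rbfox2 40-nt exon in CPSF3 knockdown against NI (0.0290).

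With limma on PSI in place of reads, called events were 0 in CPSF3 knockdown against shSCR, 1 and 2 in CPSF3 and UL1 knockdown against NI, and 0 in Empty against NI. Without a minimum of reads of both forms, which adds events to the adjustment, they were 4 in shSCR against NI, 0 in CPSF3 knockdown against shSCR and 0 in Empty against NI. The PSI rule at 15 PSI left 3 events in shSCR against NI, 1 in CPSF3 knockdown against shSCR, 0 in UL1 knockdown against shSCR, 1 in CPSF3 knockdown against NI and 1 in UL1 knockdown against NI; without the distance between nearest libraries 6 events met it in UL1 knockdown against shSCR and 1 in T7-TIA1 against Empty; and with a stricter coverage score 3 met it in shSCR against NI and 0 in UL1 knockdown against shSCR.

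Leaving out each library in turn gave 0 to 2 called genes in shSCR against NI, 1 in every such fit of CPSF3 knockdown against shSCR, 0 to 1 in UL1 knockdown against shSCR, 0 to 3 in each knockdown against NI and 0 to 3 in Empty against NI. Called events ranged from 0 to 3 in shSCR against NI and in CPSF3 knockdown against shSCR, 0 to 1 in UL1 knockdown against shSCR and in Empty against NI, 0 to 4 in CPSF3 knockdown against NI and 0 to 5 in UL1 knockdown against NI. With 1 library left in a group the PSI rule compares fewer values, and 6 to 8 events met it in shSCR against NI, 1 to 5 in CPSF3 knockdown and 2 to 5 in UL1 knockdown against shSCR, 3 to 5 and 1 to 5 in these against NI, 0 to 2 in Empty against NI and 0 to 5 in T7-TIA1 against Empty. No call changed sign. Differences that were not called turned sign for the 125-nt Ptbp3 exon (-0.3115 to 2.421 in CPSF3 knockdown and -0.5629 to 2.949 in UL1 knockdown against shSCR, negative without shSCR library 1), for the Qk intron between the knockdowns (-0.8773 to 0.08372, positive without shUL1#1 library 2) and for the Ptbp2 intron in T7-TIA1 against Empty (-0.9008 to 0.1068, positive without Empty library 1). A fit with 1 library in a group takes that library to vary like the others.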
